A study of Mus musculus with 12 samples.

Results

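Cells given TNFa and then BMP4 were compared with untreated cells of the MC3T3-E1 line, an established line of osteoblast precursors from mouse calvaria. The comparison rests on 6 of the 12 libraries of the series, 3 with both factors and 3 without either, chosen by their treatment labels. The other 6 libraries, 3 with TNFa alone and 3 with BMP4 alone, show what each factor did by itself. Every culture, the untreated ones included, was first held for 30 min in medium with 2.5% serum. By the protocol, TNFa (10 ng/mL) was then added or left out for 30 min, and BMP4 (10 ng/mL) was added or left out for 3 h. The sample characteristics name 3 h for each factor, so the labels leave the length of the TNFa exposure unclear. They also do not explain the term p65 in the titles of the TNFa libraries. Replicate 1 of each group belongs to batch 1 and replicates 2 and 3 to batch 2, as the labels number them. The labels do not say that replicates were separate cultures, so the p-values reflect the spread among these libraries and no more.

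TNFa binds its receptors and releases NF-kB, whose p65 subunit is the product of Rela, into the nucleus, where it switches on inflammatory genes together with its own inhibitors. BMP4 acts through receptor kinases that phosphorylate Smad proteins, and these enter the nucleus with Smad4 and switch on targets such as Id1. In bone, BMP signals favour osteoblast differentiation and inflammatory cytokines restrain it. The title of the series concerns Smad4, p65 and protection from inflammatory cell death.

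Polyadenylated RNA was measured for 25124 transcript entries, of which 7423 were listed at 0 in every library. The other 17701 include entries with negative log2 values, and tests covered the 11765 genes averaging 4 or more on the log2 scale. Tag totals lay between 13890822.5 and 15511103.5 in 5 of the 6 libraries and reached 20579256.5 in TNFa+BMP4 replicate 2. Of 12 osteoblast markers 8 were above the minimum level, and the summed log2 level of the list was 97 to 99.7 in untreated and 96.3 to 98.6 in TNFa+BMP4 libraries. Of 11 leukocyte markers 4 were at 0 in every library, and the summed level of that list was 18.7 to 18.9 in untreated and 18.7 to 18.8 in TNFa+BMP4 libraries. Of the adipocyte, chondrocyte, endothelium and muscle, and osteoclast markers 1 of 8, 3 of 7, 1 of 9 and 1 of 6 were above the minimum level. Fewer cells of a kind and less RNA per cell cannot be told apart in such bulk samples. Changes below are differences of deposited log2 values ± SE, adjusted for batch, with n = 3 libraries per group, and a gene was called at an adjusted p under 0.05. For weakly expressed genes these differences tend to be smaller than the authors' deposited log2 fold changes.

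Both factors together altered a wide part of the transcriptome. Of the genes tested, 3673 (31.2%) were called in TNFa+BMP4 against untreated cells, 1973 higher (16.8%) and 1700 lower (14.4%). TNFa alone gave 1822 called genes (15.5%), 9.16% of the tested genes higher and 6.32% lower, and BMP4 alone 1438 (12.2%), 6.75% higher and 5.47% lower. These 3 comparisons share the untreated libraries. Among the 3673 genes, 1034 were also called with TNFa but not BMP4, 668 with BMP4 but not TNFa and 399 with each. The remaining 1572 genes (42.8% of those called, 13.4% of those tested) were called with neither factor alone, 716 of them higher (6.09% of tested) and 856 lower (7.28%).

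**Figure D1:**
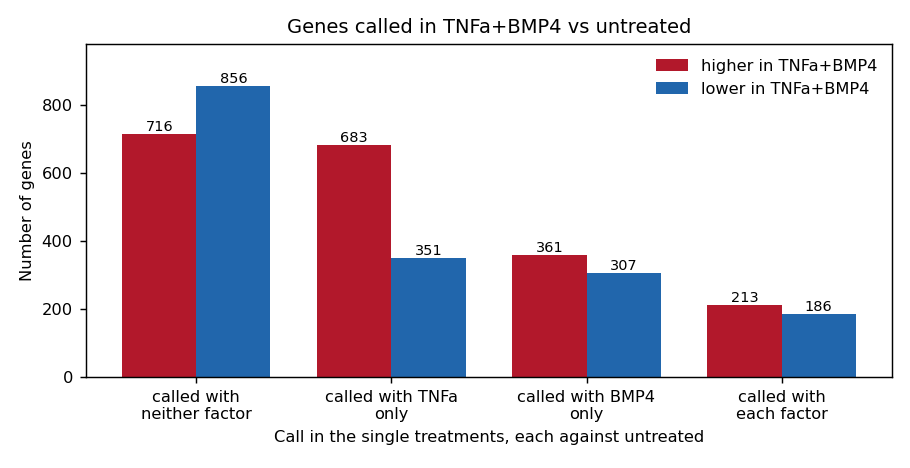
Number of genes (vertical axis) called higher or lower in TNFa+BMP4 against untreated cells, split by whether TNFa alone, BMP4 alone, each or neither gave a call. The 716 higher and 856 lower genes called with neither factor form the largest pair of bars.

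Genes called with neither factor alone changed by small amounts, and the single treatments mostly leaned the same way. The median change of the 716 higher genes was 0.2266 with both factors, 0.1038 with TNFa and 0.1084 with BMP4, and 591 of them were above untreated with each factor alone. The 856 lower genes had medians of -0.2567, -0.1127 and -0.1146, and 714 of them were below untreated with each factor alone. Only 17 of the higher and 5 of the lower genes changed by at least 0.5. The interaction, which is the TNFa effect in the presence of BMP4 minus the TNFa effect in its absence, was called by limma for 2 genes (0.017%), 1 in each direction (0.0085%), and had an unadjusted p under 0.05 for 560 (4.76%). Its median was 0.03379 over the 716 and -0.04348 over the 856 genes. A missing call with 1 factor is therefore not a measured absence of an effect. Leaving out TNFa+BMP4 replicate 1 gave 671 genes called with neither factor alone, and 605 of them were among the 1572.

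A stricter class also needs TNFa+BMP4 to differ from each single treatment in the same direction. TNFa+BMP4 against TNFa gave 1373 called genes (11.7%), 5.47% of those tested higher and 6.2% lower, and against BMP4 1905 (16.2%), 8.78% higher and 7.41% lower. The stricter class holds 78 of the 1572 genes (0.663% of tested), 33 higher (0.28%) and 45 lower (0.382%), and none of them had a called interaction. An unadjusted interaction p under 0.05 was found for 12 of the 33 and 19 of the 45. The class was chosen on differences that enter the interaction, so these counts and the single interactions given below are not independent of the choice. Just inside the class were Lypd1, Zfp101 and Ank2, whose largest adjusted p was 0.0493, 0.0493 and 0.0495, and just outside were Nt5m (0.0502), Dync2h1 (0.0506) and Ldha (0.0509). Without TNFa+BMP4 replicate 1 the class held 17 genes, 8 of them among the 78. Without untreated replicate 1 it held 171, 72 of them among the 78.

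The class reached with both factors was also chosen in batch 2 alone and read in batch 1, whose libraries took no part in the choice. Batch 2 gave 81 genes of the stricter kind, of which 78 (96.3%) changed in the same direction in batch 1 and 68 (84%) lay beyond both single-factor libraries there. The same shares over all genes tested, in the direction of batch 2, were 74.4% and 43.3%. For the 1176 genes that batch 2 called with neither factor alone they were 92.9% and 69%. Of the 81 genes, 25 are among the 78 of the stricter class above. For the 37 higher genes the median change in batch 1 was 0.467 with both factors, 0.248 with TNFa and 0.242 with BMP4. For the 44 lower genes it was -0.525, -0.201 and -0.228. The median interaction in batch 1 was 0.0223 over the higher and -0.0478 over the lower genes.

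**Figure D2:**
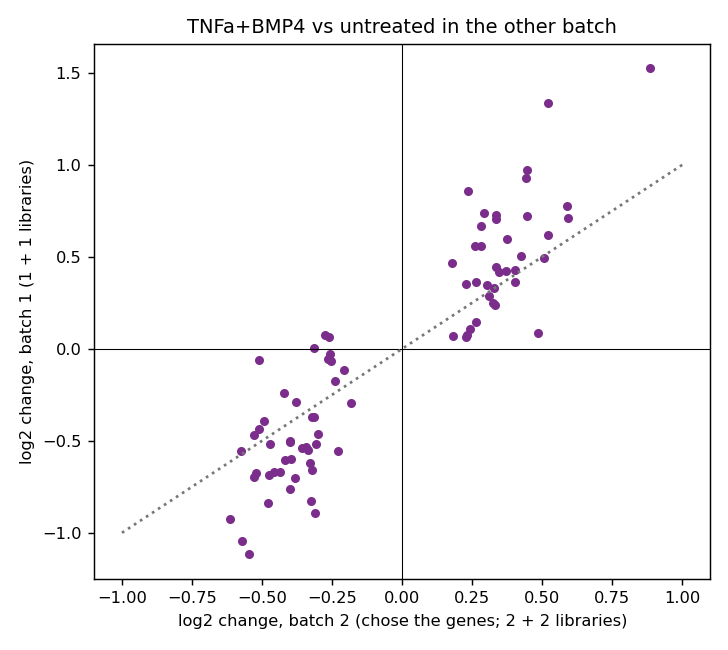
Log2 change in TNFa+BMP4 against untreated cells for the 81 genes chosen in batch 2 (horizontal axis) and read in batch 1 (vertical axis), with the line of equal change dotted. In batch 1, 78 of the 81 points lie on the same side of 0 as in batch 2.

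Genes for making ribosomes were the fullest example of a process that passed the test mainly with both factors. All 30 tested members of the list were above untreated with both factors, in batch 1 and in batch 2, and 27 of them (90%) rose, against 16.8% of all genes that rose. With TNFa 11 rose (36.7%, beside 9.16% of all genes) and with BMP4 7 (23.3%, beside 6.75%). With both factors but with neither alone 14 rose (46.7%, beside 6.09% of all genes). The median change of the list was 0.275 with both, 0.179 with TNFa and 0.137 with BMP4, beside 0.000195, -0.00897 and -0.000101 over all genes tested. The median interaction of the list was -0.0118, beside -0.00437 over all genes tested. Nop2, a methyltransferase of ribosomal RNA, was the member in the stricter class. Its log2 level was 9.74, 9.71 and 9.86 in untreated, 10.12, 9.90 and 9.83 in TNFa, 10.09, 9.71 and 9.83 in BMP4 and 10.47, 10.09 and 10.15 in TNFa+BMP4 libraries. Within each batch the TNFa+BMP4 libraries were the highest, with no overlap with untreated cells. The change was 0.47 ± 0.07 (adjusted p = 4.28e-05), against 0.18 with TNFa (adjusted p = 0.111) and 0.11 with BMP4 (adjusted p = 0.387). Gnl3, the nucleolar GTPase nucleostemin, rose by 0.46 ± 0.09, Utp4 of the small-subunit processome by 0.34 ± 0.07, Mybbp1a of the nucleolus by 0.32 ± 0.06, and Nop58 of the box C/D particles that guide methylation of ribosomal RNA by 0.30 ± 0.06. In Nop2, Gnl3, Utp4, Mybbp1a and Nop58 the TNFa change ran from 0.16 to 0.26 and the BMP4 change from 0.11 to 0.19. None of these changes was called, but members without such calls were named first. The authors' deposited table calls Mybbp1a with TNFa (adjusted p = 0.0225). TNFa+BMP4 was called above TNFa for 2 and above BMP4 for 10 of the 30 genes. The list median was 0.453 in batch 1 and 0.226 in batch 2, and without TNFa+BMP4 replicate 1 the genes called with neither factor alone numbered 7. The 27 called genes became 19 without untreated replicate 1, 21 without TNFa+BMP4 replicate 1 and 23 with quantile normalization, and 22 are called in the authors' deposited table.

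**Figure D3:**
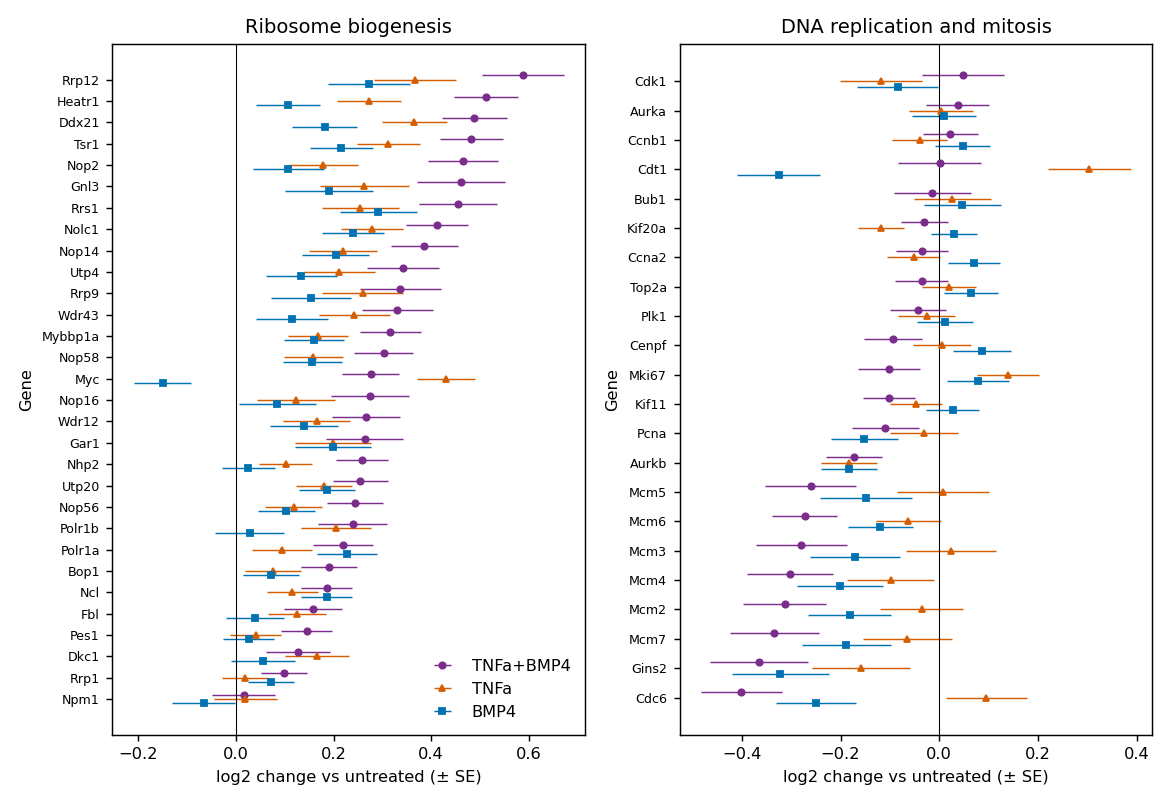
Log2 change against untreated cells (± SE, horizontal axis) with both factors, TNFa or BMP4 for each tested gene of the ribosome biogenesis list and of the DNA replication and mitosis list (vertical axes). All 30 ribosome biogenesis genes lie above 0 with both factors, and the 6 Mcm genes lie below it.

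Other steps of protein production followed. Of all genes tested, 31.2% were called with both factors, 15.5% with TNFa and 12.2% with BMP4. Each list below is to be read beside these shares. Initiation factors bring messenger RNA and the initiator tRNA to the ribosome, and 15 of 20 tested rose and 1 fell with both factors (80%), beside 30% called with TNFa and 35% with BMP4. Eif2s1, the alpha subunit of eIF2, rose by 0.30 ± 0.07 and was called with neither factor alone (0.14 with TNFa, 0.09 with BMP4), as was Eif4e, the cap-binding protein, at 0.23 ± 0.07. Eif4b, a helicase cofactor, was the member that fell, by 0.16 ± 0.05. Of 20 aminoacyl-tRNA synthetases, which load amino acids onto tRNAs, 14 rose (70%) and none fell, beside 30% called with TNFa and 5% with BMP4. The median change of the synthetases was 0.199 with both factors, 0.127 with TNFa and 0.0951 with BMP4. Iars, the isoleucine enzyme, had levels of 10.61, 10.87 and 10.94 in untreated and 11.04, 11.05 and 11.07 in TNFa+BMP4 libraries, which did not overlap. Its change was 0.25 ± 0.05 (adjusted p = 0.00129), against 0.16 with TNFa (adjusted p = 0.0571) and 0.10 with BMP4 (adjusted p = 0.262). Without untreated replicate 1 the called initiation factors numbered 9 of 20 and the called synthetases 9, and without TNFa+BMP4 replicate 1 the initiation factors called numbered 10. Quantile normalization left 10 initiation factors and 9 synthetases called, and the call of Eif4e was lost there and in 3 of 12 fits that left out 1 library.

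Endoplasmic reticulum genes moved less uniformly. The unfolded protein response senses unfolded proteins in this compartment through the kinases Ern1 (IRE1) and Eif2ak3 (PERK) and raises chaperones. Of 27 tested genes of the response, 11 rose with both factors and none fell (40.7%, beside 31.2% of all genes called, and 14.8% called with TNFa and 18.5% with BMP4), and 25 were above untreated. Their median change was 0.14 with both factors, 0.0539 with TNFa and 0.104 with BMP4. Ern1, the sensor that splices Xbp1 messenger RNA, belongs to the stricter class, but stayed in it in 3 of 12 leave-one-library-out fits, and it left the class with quantile normalization and in the authors' deposited table. Ern1 was at 8.09, 8.25 and 8.20 in untreated, 8.27, 8.37 and 8.51 in TNFa, 8.40, 8.48 and 8.42 in BMP4 and 8.97, 8.51 and 8.69 in TNFa+BMP4 libraries. The TNFa+BMP4 libraries lay above all untreated ones, and the lowest of them was level with the highest TNFa library. The change of Ern1 was 0.54 ± 0.10 (adjusted p = 0.000158), 0.34 above TNFa (adjusted p = 0.0231) and 0.29 above BMP4 (adjusted p = 0.0431). Xbp1, the transcription factor made from the spliced message, rose with each factor (0.15 with TNFa, 0.34 with BMP4) and more with both (0.55 ± 0.05, adjusted p = 1.83e-08). Hspa5, the chaperone BiP, also rose with each factor (0.22 and 0.27) and reached 0.46 ± 0.06 with both, above TNFa (adjusted p = 0.0103) and BMP4 (adjusted p = 0.0304). Dnajb9, a BiP cofactor, rose by 0.40 ± 0.09 and was called with neither factor alone. The list median was 0.271 in batch 1 and 0.0719 in batch 2. The 6 members called with neither factor alone (22.2%, beside 13.4% of all genes) became 2 without TNFa+BMP4 replicate 1. With quantile normalization the list median was 0.0714 and 8 members were called, without Calr, Herpud1 and Selenos, which are named for that loss.

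Export from the endoplasmic reticulum showed the same order. Of 31 tested genes for translocation of signal peptides and COPII vesicles, 14 rose and none fell (45.2%, beside 31.2% of all genes called). With TNFa 6.45% were called and with BMP4 19.4%. The median change of the list was 0.139 with both factors, -0.00105 with TNFa and 0.107 with BMP4. With both factors the median was 0.267 in batch 1, 0.0935 in batch 2 and 0.0723 with quantile normalization. Of the list, 9 genes were called with both factors but with neither alone (29%, beside 13.4% of all genes). Srprb, a subunit of the receptor for the signal recognition particle, rose by 0.25 ± 0.05. Sec13, a coat protein of COPII vesicles, rose by 0.24 ± 0.06 and was 0.28 above its level with TNFa (adjusted p = 0.00613). Both Srprb and Sec13 lay higher in the TNFa+BMP4 library than in the untreated library of batch 1 (0.35 and 0.36) and on average in batch 2 (0.20 and 0.18). The 14 became 5 without TNFa+BMP4 replicate 1, 6 without untreated replicate 1 and 5 with quantile normalization, and 9 are called in the authors' deposited table.

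The proteasome, which degrades tagged proteins, gave 14 of 27 subunits that rose and none that fell (51.9%, beside 31.2% of all genes called). With TNFa 7.41% were called and with BMP4 11.1%. Of the list, 10 were called with both factors but with neither alone (37%, beside 13.4% of all genes). The median change was 0.156 with both factors, 0.0635 with TNFa and 0.0536 with BMP4, and 26 of 27 subunits were above untreated in batch 1 and 27 in batch 2. Psma4, a subunit of the catalytic core, was at 10.32, 10.37 and 10.39 in untreated and 10.67, 10.57 and 10.64 in TNFa+BMP4 libraries. These groups did not overlap, and the change was 0.26 ± 0.06 (adjusted p = 0.00313), beside 0.12 with TNFa and 0.05 with BMP4. The 14 became 7 without TNFa+BMP4 replicate 1, 8 without untreated replicate 1 and 6 with quantile normalization, and 7 are called in the authors' deposited table.

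**Figure D4:**
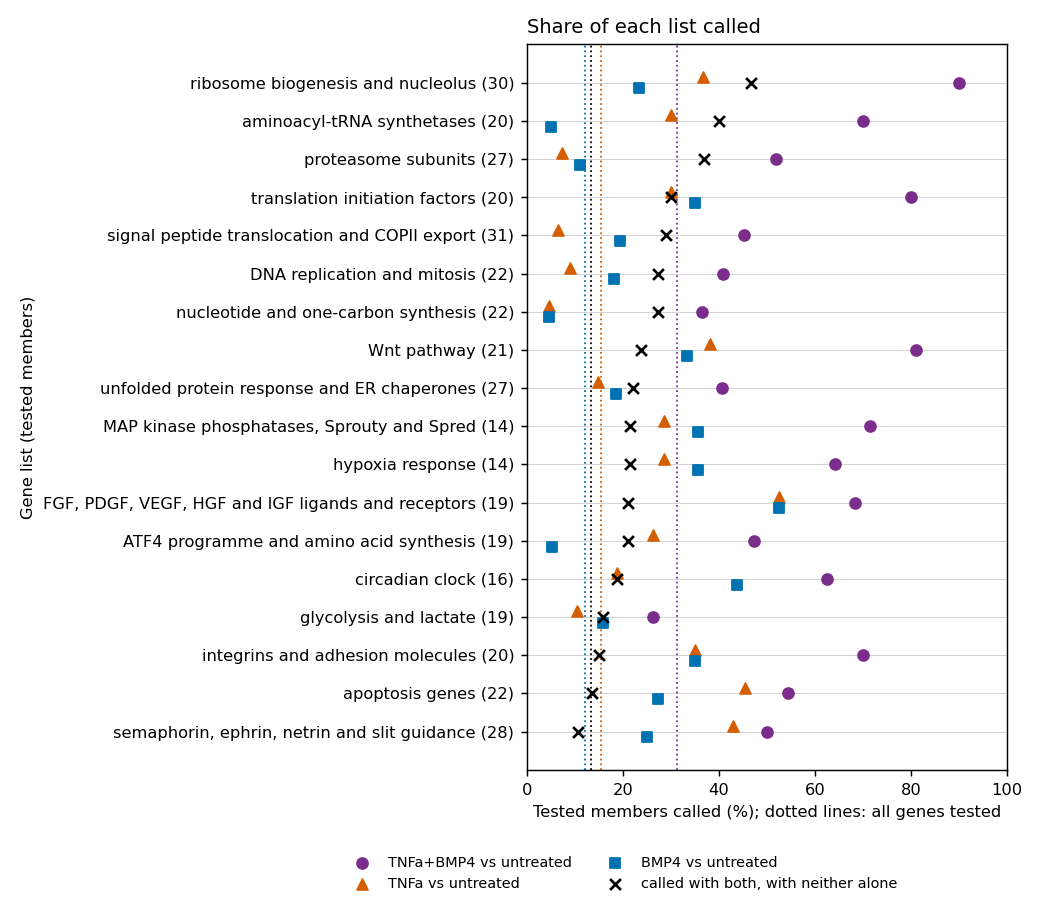
Share of tested members (horizontal axis, %) called against untreated cells with both factors, TNFa or BMP4, and called with both but with neither alone, for 18 gene lists (vertical axis, with the number tested). Dotted lines mark the shares of all genes tested, 31.2%, 15.5%, 12.2% and 13.4%; ribosome biogenesis has the highest share called with both factors, 90%.

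The ATF4 programme responds to amino acid shortage and to stress signals that phosphorylate eIF2, and its transcription factors rose. Atf4 itself rose by 0.40 ± 0.07 with both factors and by 0.21 with TNFa (adjusted p = 0.0413), and its BMP4 change of 0.04 was not called. Cebpb, a partner that binds DNA with ATF4 and also an inflammatory regulator, changed by 1.00 ± 0.15 with both factors and 0.57 with TNFa, both called, and by -0.23 with BMP4, which was not (adjusted p = 0.372). Nupr1, a small stress-induced chromatin protein, belongs to the stricter class. Its levels were 8.24, 8.87 and 8.93 in untreated, 8.19, 9.04 and 8.93 in TNFa, 8.20, 8.79 and 8.93 in BMP4 and 8.84, 9.15 and 9.16 in TNFa+BMP4 libraries. In each batch the TNFa+BMP4 libraries were the highest, while across batches the groups overlapped. Nupr1 changed by 0.37 ± 0.08 with both factors (adjusted p = 0.00175), 0.04 with TNFa and -0.04 with BMP4, and its interaction of 0.37 had an unadjusted p of 0.0048 and an adjusted p of 0.735. Chac1, which degrades glutathione, rose by 0.33 ± 0.08, whereas Psat1, an enzyme of serine synthesis, fell by 0.25 ± 0.05. Of the 19 tested genes 6 rose and 3 fell (47.4%, beside 31.2% of all genes called). With TNFa 26.3% were called and with BMP4 5.26%.

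Promoters of genes from these groups are shown next because their letters differ by process. Sequences are the 250 bases before the RefSeq start site on GRCm38.p6, read 5′ to 3′ on the strand of the gene, and motifs were searched on both strands. A start site matched for 8894 of the 11765 genes tested. Capitals mark the E-box CACGTG in Nop2 (chr6:125131633-125131882, plus strand), 60 bases before the start. In Hspa5 (chr2:34771840-34772089, plus strand) capitals mark 4 CCAAT boxes, at 214, 186, 98 and 65 bases before the start, the second overlapping an AP-1 site (TGANTCA) and the last opening an ER stress element (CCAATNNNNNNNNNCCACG). In Nupr1 (chr7:126625471-126625720, minus strand) they mark an E-box at 225 bases and a C/EBP-ATF composite element (TGATGNAA) at 110 bases before the start. In Mcm7 (chr5:138171884-138172133, minus strand), a gene described below, they mark CCAAT boxes at 72 and 26 bases and a kappaB consensus at 42 bases before the start.
Nop2: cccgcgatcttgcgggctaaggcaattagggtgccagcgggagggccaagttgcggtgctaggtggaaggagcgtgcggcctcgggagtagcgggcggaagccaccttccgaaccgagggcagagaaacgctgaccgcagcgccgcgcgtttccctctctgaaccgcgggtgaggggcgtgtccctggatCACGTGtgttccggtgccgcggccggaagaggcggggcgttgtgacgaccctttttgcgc
Hspa5: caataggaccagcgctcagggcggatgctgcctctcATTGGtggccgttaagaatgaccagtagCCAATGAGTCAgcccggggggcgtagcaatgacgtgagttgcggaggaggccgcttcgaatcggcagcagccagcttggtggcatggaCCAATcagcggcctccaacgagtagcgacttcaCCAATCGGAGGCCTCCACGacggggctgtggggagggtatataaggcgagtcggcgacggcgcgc
Nupr1: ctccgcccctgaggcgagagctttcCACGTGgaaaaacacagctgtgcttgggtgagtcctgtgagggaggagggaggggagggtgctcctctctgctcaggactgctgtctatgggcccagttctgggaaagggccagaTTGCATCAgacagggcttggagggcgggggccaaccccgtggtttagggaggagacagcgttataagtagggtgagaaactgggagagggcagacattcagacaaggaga
Mcm7: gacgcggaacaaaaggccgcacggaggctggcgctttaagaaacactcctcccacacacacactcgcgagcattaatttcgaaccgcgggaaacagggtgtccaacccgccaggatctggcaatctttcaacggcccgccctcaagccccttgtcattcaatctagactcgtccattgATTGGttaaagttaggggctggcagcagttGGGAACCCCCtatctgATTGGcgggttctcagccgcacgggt

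The ER stress element was found in 8 of 23 promoters of the unfolded protein response list (34.8%) and in 14 of all 8894 (0.157%). The composite element was found in 5 of 18 promoters of the ATF4 list (27.8%) and 3 of 12 of the synthetases (25%), and in 1.79% of all. CCAAT boxes stood in 87% of the unfolded protein response promoters and 93.8% of those of the DNA replication list, and in 37.1% of all. The E-box stood in 1 of 24 ribosome biogenesis promoters (4.17%), that of Nop2, and in 8.51% of all. Promoters of the 716 higher genes called with neither factor alone held the kappaB consensus in 9.95% and the GC-rich element GGCGCC, known from BMP-Smad targets, in 20.1%, beside 8.8% and 18% of all promoters. For the 856 lower genes these shares were 6.58% and 16.4%. The kappaB consensus stood in 57.1% of the promoters of NF-kB subunits and inhibitors. A match describes these letters and is no site of binding.

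Genes of DNA replication went the other way. The MCM helicase unwinds DNA ahead of the replication fork, and all 6 subunits of its ring, Mcm2 to Mcm7, fell with both factors by 0.26 to 0.33 while none was called with either factor alone. Of 22 tested genes for replication and mitosis 9 fell and none rose (40.9%, beside 31.2% of all genes called and 14.4% called lower). With TNFa 9.09% of the list were called and with BMP4 18.2%. The 3 falls beyond the Mcm genes were Cdc6, Gins2 and Aurkb, named after their values were seen. Mcm7 was at 10.74, 10.47 and 10.66 in untreated and 9.99, 10.37 and 10.50 in TNFa+BMP4 libraries. The drop lay mostly in batch 1 (-0.75) and was -0.13 in batch 2, where the groups overlapped. Mcm2 showed the same pattern, -0.72 in batch 1 and -0.11 in batch 2, with a change of -0.31 ± 0.08 over all libraries (adjusted p = 0.0072). Without TNFa+BMP4 replicate 1 the called genes of the list numbered 3 and those called with neither factor alone 1, and without untreated replicate 1 they numbered 5 in all. The authors' deposited table calls 4 of the list, and of the Mcm genes it calls Mcm4 and Mcm6 but not Mcm2, Mcm3, Mcm5 or Mcm7 (adjusted p = 0.181, 0.339, 0.384 and 0.191). Enzymes that make nucleotides were split. Rrm1, a ribonucleotide reductase subunit, fell by 0.26 ± 0.07, while Atic, a purine enzyme, rose by 0.17 ± 0.05. In all 4 of the 22 genes rose and 4 fell (36.4%, near the 31.2% of all genes, with 4.55% called with each factor alone). These 8 became 4 without untreated replicate 1, 4 without TNFa+BMP4 replicate 1 and 5 with quantile normalization.

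Pole, the catalytic subunit of DNA polymerase epsilon, and Chtf18, of an alternative clamp loader, fell among the 12 largest falls of the stricter class. Pole was at 9.62, 9.09 and 9.14 in untreated, 9.36, 9.11 and 9.06 in TNFa, 9.27, 8.92 and 8.93 in BMP4 and 8.74, 8.80 and 8.79 in TNFa+BMP4 libraries. All TNFa+BMP4 libraries were below all others. The change was -0.50 ± 0.08 (adjusted p = 8.19e-05), with -0.11 for TNFa and -0.24 for BMP4. Chtf18 changed by -0.49 ± 0.09 with both factors and by -0.20 with each factor alone. Pole stayed in the stricter class in 7 of 12 fits that left out 1 library, and Chtf18 in 2. Pole left it with centring by transcript length and Chtf18 with quantile normalization, and neither is in it in the authors' deposited table.

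The other large members of the stricter class came from many processes. Npc2, a lysosomal carrier of cholesterol, was at 11.16, 11.12 and 11.10 in untreated, 11.45, 11.16 and 11.31 in TNFa, 11.42, 11.18 and 11.25 in BMP4 and 12.13, 11.53 and 11.58 in TNFa+BMP4 libraries. The TNFa+BMP4 libraries were above all others, by 0.62 ± 0.07 against untreated (adjusted p = 1.49e-06) and by 0.44 and 0.46 against TNFa and BMP4. Tril, an adaptor of Toll-like receptor signalling, rose by 0.63 ± 0.08, and Trmt61a, a tRNA methyltransferase, by 0.65 ± 0.09. Ifi211, an interferon-inducible gene, rose by 0.72 ± 0.11 and Gpr39, a zinc-sensing receptor, by 0.60 ± 0.09 on the deposited scale. Both Ifi211 and Gpr39 were weakly expressed, and the authors' deposited table gives them log2 fold changes of 1.86 and 2.32. Cxcl12, the ligand of Cxcr4 made by stromal cells, rose by 0.44 ± 0.09, with 0.06 for TNFa and 0.18 for BMP4. Etv5, an ETS factor induced by FGF signalling, rose by 0.46 ± 0.08, Polr3d, a subunit of RNA polymerase III, by 0.45 ± 0.08, Tuba1c, an alpha-tubulin, by 0.41 ± 0.06, and Apol9b, an apolipoprotein L relative, by 0.45 ± 0.08. With 1 library left out, Polr3d stayed in the stricter class in 5 of 12 fits, Cxcl12 and Etv5 in 6, and Gpr39 in 7. Cxcl12, Polr3d and Gpr39 left it with quantile normalization. Npc2, Polr3d, Cxcl12, Etv5, Gpr39 and Apol9b are not in it in the authors' deposited table, which calls Npc2 with TNFa alone (adjusted p = 0.0203).

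**Figure D5:**
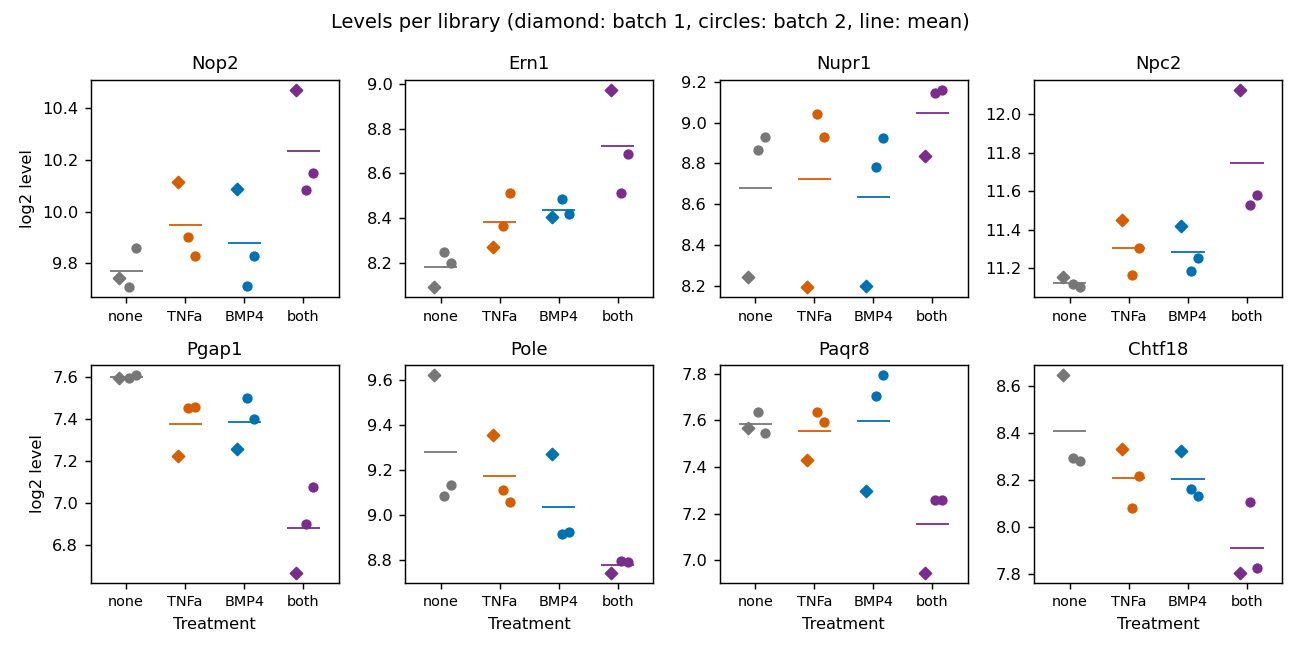
Deposited log2 levels (vertical axes) by treatment for 8 genes of the stricter class, with batch 1 as diamonds, batch 2 as circles and a line at the group mean. In each batch the TNFa+BMP4 libraries are the highest for Nop2, Ern1, Nupr1 and Npc2 and the lowest for Pgap1, Pole and Paqr8, except that 1 TNFa library equals the lowest Ern1 value; Chtf18 has 1 TNFa+BMP4 library between the TNFa libraries of its batch.

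Among the falls, Pgap1, which remodels GPI anchors, had levels of 7.59, 7.60 and 7.61 in untreated, 7.23, 7.45 and 7.46 in TNFa, 7.26, 7.50 and 7.40 in BMP4 and 6.67, 6.90 and 7.08 in TNFa+BMP4 libraries. No TNFa+BMP4 library overlapped with any other, and the change was -0.72 ± 0.08 (adjusted p = 8.45e-07), -0.50 from each single treatment. Paqr8, a membrane progestin receptor, was at 7.57, 7.63 and 7.54 in untreated, 7.43, 7.63 and 7.59 in TNFa, 7.30, 7.70 and 7.79 in BMP4 and 6.95, 7.26 and 7.26 in TNFa+BMP4 libraries. Paqr8 fell by 0.43 ± 0.09 with both factors, with -0.03 for TNFa and 0.02 for BMP4, and its interaction of -0.41 had an unadjusted p of 0.0027 and an adjusted p of 0.703. Pgap1 and Paqr8 are 2 of the 4 genes that stayed in the class when any single library was left out; the others were Esd and Vps13a, named for that count. Further falls were Tmem184a (-0.58 ± 0.08), Mab21l1 (-0.53 ± 0.09), Itga10, a collagen-binding integrin (-0.48 ± 0.07), and Nexn, an actin-binding protein (-0.46 ± 0.09). Arhgef6, a Rac and Cdc42 exchange factor (-0.43 ± 0.08), Slc12a9 (-0.45 ± 0.08), Ppip5k1, an inositol pyrophosphate kinase (-0.43 ± 0.08), and 1700025G04Rik (-0.49 ± 0.07) also fell. With 1 library left out, Mab21l1 and Ppip5k1 stayed in the stricter class in 2 of 12 fits and Nexn in 3. Itga10, Arhgef6 and Slc12a9 stayed in 7, Tmem184a in 9 and 1700025G04Rik in 10. Mab21l1, Itga10 and 1700025G04Rik left it with quantile normalization. Of these further falls, only 1700025G04Rik is in it in the authors' deposited table. Of the 78 genes 13 stayed in the class in at least 10 of the 12 fits that left out 1 library, and 70 were called in the same comparison of the authors' deposited table. The lower genes of the class had longer transcripts, with a median of 5541 bases, than the higher genes (2428) or all genes tested (2996). Over all genes, the share called lower went from 6.8% in the shortest quintile to 21.9% in the longest. Centring each library by transcript length, chosen after seeing the data, gave 27 lower genes in place of 45 and 31 higher ones in place of 33. Of the 78 genes, 42 stayed in the class.

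Hypoxia and glycolysis genes did not move as groups. Of 14 tested hypoxia genes 5 rose and 4 fell (64.3%, beside 31.2% of all genes called). With TNFa 28.6% were called and with BMP4 35.7%. Vegfa, the endothelial growth factor, was at 9.72, 9.64 and 9.45 in untreated and 10.98, 9.86 and 9.78 in TNFa+BMP4 libraries. The groups did not overlap, and the change was 0.61 ± 0.13 (adjusted p = 0.00104), beside 0.22 with TNFa (adjusted p = 0.298) and -0.04 with BMP4 (adjusted p = 0.889). It was 1.27 in batch 1 and 0.27 in batch 2. The authors' deposited table does not call Vegfa with both factors (adjusted p = 0.112) but calls it with TNFa alone (adjusted p = 0.0453). Epas1, the hypoxia-inducible factor HIF-2 alpha, fell by 0.44 ± 0.09 and was called with neither factor alone. Of 19 glycolysis genes 4 rose and 1 fell (26.3%, below the 31.2% of all genes). Hk2, an inducible hexokinase, rose by 1.10 ± 0.13 with both factors and by 0.56 with BMP4, with 0.18 for TNFa (adjusted p = 0.442), and stood above both single treatments by 0.92 and 0.54. Pfkm, the muscle form of phosphofructokinase, fell by 0.39 ± 0.09. Ldha, lactate dehydrogenase A, rose by 0.22 ± 0.05 at levels between 12.87 and 13.26. The 5 called glycolysis genes became 8 without untreated replicate 3.

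In the Wnt pathway, which steers osteoblast fate through beta-catenin, 6 genes rose and 11 fell of 21 tested (81%, beside 31.2% of all genes called). With TNFa 38.1% were called and with BMP4 33.3%, and the median change with both factors was -0.227. Of the ligands, Wnt11 rose with BMP4 (1.20) and with both (1.00 ± 0.08) but not with TNFa (-0.03, not called), Wnt5a fell by 0.35 ± 0.08 and Wnt5b rose by 0.25 ± 0.07. The secreted antagonists Dkk3 and Sfrp2 fell by 0.28 ± 0.05 and 0.27 ± 0.09, and Axin2, a feedback inhibitor of beta-catenin, fell by 0.23 ± 0.08. Wnt5a, Wnt5b, Dkk3, Sfrp2 and Axin2 were called with neither factor alone, and Dkk3 belongs to the stricter class. Dkk3 stayed in that class in 3 of 12 fits that left out 1 library and left it with quantile normalization, with centring by length and in the authors' deposited table. Without TNFa+BMP4 replicate 1 or replicate 2 the list held 2 genes called with neither factor alone, and the call of Axin2 was lost in 5 of 12 such fits. The call of Sfrp2 held in 9 of 12 and that of Wnt5b in 10, and Sfrp2 and Axin2 lost theirs with quantile normalization. The authors' deposited table does not call Wnt5b, Sfrp2 or Axin2 with both factors (adjusted p = 0.0809, 0.165 and 0.191). It calls Dkk3 with TNFa alone (adjusted p = 0.0109).

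Among growth factors and receptors of the FGF, PDGF, VEGF, HGF and IGF families 6 rose and 7 fell of 19 tested (68.4%, beside 31.2% of all genes called). With each factor alone 52.6% were called, and the authors' deposited table calls 8 of the list with both factors. The HGF receptor Met fell by 0.30 ± 0.08 and the IGF receptor Igf1r by 0.23 ± 0.05, both called with neither factor alone, and Met was 0.34 below its level with TNFa (adjusted p = 0.00721). Fgf7, a ligand for epithelial FGF receptors, rose by 1.16 ± 0.12 with both factors and 0.62 with TNFa. Brakes on the MAP kinase pathway gave 8 rises and 2 falls of 14 tested (71.4%, beside 31.2% of all genes called). Dusp6, the ERK phosphatase, rose by 1.01 ± 0.10 with both and by 0.58 and 0.51 with TNFa and BMP4. Dusp5, a nuclear ERK phosphatase, rose by 0.33 ± 0.10 and was called with neither factor alone, a call lost without TNFa+BMP4 replicate 1 (adjusted p = 0.242), while Dusp14 (-0.39 ± 0.09) and Spred3 (-0.47 ± 0.11) fell.

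Cell adhesion and guidance genes moved in both directions, and their shares stand beside 31.2% of all genes called with both factors. Of 20 integrins and adhesion molecules 9 rose and 5 fell (70%, against 35% called with each factor alone), and of 28 semaphorins, ephrins, netrins, slits and receptors 9 rose and 5 fell (50%, against 42.9% with TNFa and 25% with BMP4). Itga5, the fibronectin receptor subunit, rose by 0.31 ± 0.09 with both factors and was called with neither alone, with 0.76 in batch 1 and 0.09 in batch 2. Itgb8, which pairs with alpha-v, fell by 0.36 ± 0.09. Sema7a, a membrane-anchored semaphorin, rose by 0.39 ± 0.10 and Sema3e, a ligand of Plxnd1, fell by 0.34 ± 0.09, while Plxnd1 rose by 1.22 ± 0.06. The call of Itga5 was lost without TNFa+BMP4 replicate 1 (adjusted p = 0.16), and that of Sema7a too (adjusted p = 0.105).

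Cell death, which the title of the series names, was covered by several lists. Of 22 apoptosis genes 7 rose and 5 fell (54.5%, beside 31.2% of all genes called). With TNFa 45.5% were called and with BMP4 27.3%. Ripk1, the kinase that directs TNF receptor signals towards survival or death, rose by 0.26 ± 0.06 with both factors, with 0.16 for TNFa (adjusted p = 0.0652) and 0.06 for BMP4. Bax, which permeabilises mitochondria, rose by 0.18 ± 0.06 and Bcl2l11, the killer protein Bim, fell by 0.29 ± 0.10, calls lost in 3 and 4 of 12 fits that left out 1 library. Mcl1, which protects mitochondria, rose by 0.27 ± 0.05 with both factors and was called with neither alone (0.11 and 0.15), and was 0.16 above TNFa (adjusted p = 0.0399). Casp8, the initiator caspase of death receptors, changed by 0.04 ± 0.07 with both factors (adjusted p = 0.673) and rose by 0.21 with TNFa. Bcl2l1, another mitochondrial guardian, changed by -0.01 ± 0.07 and was not called. Mlkl, the executor of necroptosis, rose by 0.30 ± 0.07, beside 0.35 with TNFa, and the inhibitor Birc3 rose by 1.46 ± 0.12, beside 1.57 with TNFa.

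Clock genes showed 6 rises and 4 falls of 16 tested (62.5%, beside 31.2% of all genes called). With TNFa 18.8% were called and with BMP4 43.8%. Nfil3, a repressor of clock output, rose by 0.60 ± 0.13, with 0.26 for each factor alone and no call. Per2 (0.30 ± 0.11) and Per3 (-0.36 ± 0.10) of the negative limb changed in opposite directions. The call of Per2 was lost in 4 of 12 fits that left out 1 library.

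A wider class stood above or below each single treatment whether or not these were called. It holds 281 genes (2.39%), 133 higher (1.13%) and 148 lower (1.26%), and 56 of the higher and 63 of the lower ones were called with each factor. The medians of the higher genes were 0.678 with both factors, 0.276 with TNFa and 0.236 with BMP4. Junb, an AP-1 subunit, was the clearest case, at 8.37, 8.64 and 8.95 in untreated, 10.68, 10.57 and 10.77 in TNFa, 10.27, 10.33 and 10.28 in BMP4 and 11.94, 11.82 and 11.85 in TNFa+BMP4 libraries. No group overlapped with another. Timp1, a metalloproteinase inhibitor, rose by 1.53 ± 0.10, 0.77 above TNFa and 1.14 above BMP4. Among falls, the receptor Notch1 changed by -0.92 ± 0.08 and Dhcr7, of the last step of cholesterol synthesis, by -0.92 ± 0.09, and each was lower than with either factor alone.

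On the deposited scale, where weak genes tend to change less than in the authors' fold changes, the chemokine Ccl2 led the 12 largest rises (4.66 ± 0.21). The rise of Ccl2 with TNFa was 4.36, and its BMP4 change of 0.10 was not called (adjusted p = 0.827). The pattern receptor Tlr2 (3.48 ± 0.11) and the chemokine Ccl7 (3.32 ± 0.18) stood 0.49 and 0.56 above their TNFa levels (adjusted p = 0.0054 and 0.0493). Nfkbie, an inhibitor of NF-kB, rose by 3.38 ± 0.05 and differed from TNFa by -0.33. The keratin gene Krt16 was at 8.15, 7.03 and 7.03 in untreated, 10.38, 8.35 and 8.33 in TNFa, 10.41, 8.34 and 8.50 in BMP4 and 11.98, 9.85 and 9.96 in TNFa+BMP4 libraries. Within each batch the order of the groups was clear at both ends, with untreated lowest and both factors highest, and the change of 3.19 ± 0.13 was 1.57 above TNFa. Among the falls on that scale the receptor Erbb3 came first (-1.33 ± 0.12, -0.64 from TNFa), before Carns1, which makes carnosine (-1.22 ± 0.11), Faah, a fatty acid amide hydrolase (-1.17 ± 0.12), Ehbp1, an endocytic adaptor (-1.12 ± 0.06), Mtus1, a microtubule-associated protein (-1.10 ± 0.09), and Fam189a2 (-1.08 ± 0.09). The order differs in the authors' deposited table, where the log2 fold changes of Plekha7 (-1.68), Fam189a2 (-1.67) and Carns1 (-1.65) are below that of Erbb3 (-1.61), and Icam1, an adhesion molecule outside the 12 rises here, has 7.29.

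The other 6 of these rises, beside Junb above, were inflammatory genes, and none of them was called higher than with TNFa alone. C3, the central complement protein, rose by 2.88 ± 0.15 with both factors and 3.74 with TNFa, a difference of -0.86 (adjusted p = 0.000577). Gbp2, an interferon-inducible GTPase, rose by 2.82 ± 0.08 and was 0.46 below TNFa (adjusted p = 0.00058). Nfkbia (2.86 ± 0.13), Tnfaip3 (2.46 ± 0.11) and Relb (2.45 ± 0.08), which encode inhibitors and a subunit of NF-kB, and the chemokine Cx3cl1 (2.35 ± 0.12) were not called different from TNFa alone. Of the large falls, Plekha7, an adherens junction protein, changed by -1.07 ± 0.11, Aff3, a nuclear protein of the AF4 family, by -1.06 ± 0.10, Hid1, of the trans-Golgi, by -1.03 ± 0.09, Akap12, a kinase scaffold, by -1.02 ± 0.06, Bcat2, a branched-chain aminotransferase, by -1.02 ± 0.09, and Eya1, a developmental phosphatase, by -1.02 ± 0.10. Akap12 and Bcat2 were lower with both factors than with TNFa (adjusted p = 0.000693 and 0.000221) and than with BMP4 (adjusted p = 3.81e-08 and 0.0378).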

How the data were processed

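Polyadenylated RNA of 12 MC3T3-E1 libraries, 3 per group, was sequenced with 150 bp paired reads, per the labels' protocols. Trim Galore, HISAT2, HOMER and the mm10 build are named in the submitters' processing notes. Per the file headers, the authors counted reads over exons with HOMER for 1 transcript per gene. The library values are deposited as log2 values whose transformation is not given in the sources used here, and no counts are in the table used. The authors' log2 fold changes and adjusted p-values for each comparison are deposited in the same table and served as an alternative. The deposited log2 differences have a slope of 0.26 on the authors' fold changes at mean levels of 4 to 6 and 0.92 at 10 and above. Differences of weak genes thus tend to be smaller than those fold changes. Whether noise in the fold changes lowers the slope was not tested.

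A limma model (version 3.58.1, R 4.3.3) of 4 groups, an additive batch term and a mean-variance trend was fitted to these values, with 7 residual degrees of freedom. The filter kept genes averaging at least 4, calls used a Benjamini-Hochberg adjusted p under 0.05 over 11765 genes, and tests are two-sided. The script was checked on simulated data. A gene was called with neither factor alone when the combination but no single treatment was called; the stricter class also needed calls against both single treatments in the same direction. The comparison, the 47 process lists, the marker lists and the motifs were chosen with earlier results of these data known, and 18 lists with at least 3 genes called with neither factor alone are described in full. Named genes are the 12 largest rises and falls of the comparison and of the stricter class that moved alike in both batches, up to 6 members of each list described in full, up to 2 of the others, and a fixed set of 20. In lists described in full, members of the stricter class were named first, then those called with neither factor alone. Tag totals of the 12 libraries ran from 13737313.5 to 20579256.5, and their number alone limits precision. Promoters are from RefSeq on GRCm38.p6, matched by gene symbol and a start site within 1 base. Alternatives covered batch, scaling, filters, the trend, the call rule, the authors' p-values and each library left out. A few genes that the naming rule selects are not reported here.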

Additional observations from a re-analysis of the deposited data

Results flagged for a closer look

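The interaction, the TNFa effect with BMP4 minus that without it, passed the adjusted threshold for 2 genes. Neither call was stable: with 1 library left out it held in 5 of 12 fits for Nfkbie and 4 of 12 for Pdgfb, both were lost without a batch term, and Pdgfb lost its call with quantile normalization (adjusted p = 0.0828) and with the replicate block. For Nfkbie, an inhibitor of NF-kB, the interaction was -0.494 ± 0.0744 (adjusted p = 0.02, limma), with changes of 3.38 with both factors, 3.71 with TNFa and 0.164 with BMP4. Nfkbie was at 8.42, 7.83 and 7.72 in untreated, 12.16, 11.47 and 11.48 in TNFa, 8.58, 7.94 and 7.94 in BMP4 and 11.78, 11.19 and 11.14 in TNFa+BMP4 libraries. For Pdgfb, a subunit of platelet-derived growth factor, it was 1.02 ± 0.169 (adjusted p = 0.0382), with changes of 0.86 with both factors, 0.489 with TNFa and -0.645 with BMP4. Pdgfb was at 6.66, 7.14 and 7.24 in untreated, 7.14, 7.68 and 7.70 in TNFa, 5.85, 6.60 and 6.65 in BMP4 and 7.92, 7.93 and 7.77 in TNFa+BMP4 libraries. For Pdgfb, BMP4 libraries were the lowest in each batch and TNFa+BMP4 libraries the highest.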

How the results depend on the processing

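Numbers of genes follow in the order TNFa+BMP4 against untreated, called with neither factor alone, stricter class, interaction, from 3673, 1572, 78 and 2. Without a batch term they were 869, 498, 1 and 0. In batch 2 alone the interaction gave 15 genes, with quantile normalization 1 and with no filter on low values 0. That last setting gave 47 genes in the stricter class, 29 of them among the 78. Calls of at least 0.5 in size numbered 689, and 271 by that rule with neither factor alone. By the authors' deposited adjusted p, 986 were called with neither factor alone and 49 in the stricter class, of which 664 and 28 are among the 1572 and 78. Leaving out each library gave 2560 to 4014, 671 to 1959, 17 to 171 and 0 to 7. Quantile normalization turned 1973 higher and 1700 lower calls into 1643 and 2020.

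Replicate numbers were not taken as pairs beyond batch: the correlation of replicate differences between groups in batch 2 ran from 0.0199 to 0.164. With a replicate block in place of the batch term the numbers were 3635, 1625, 65 and 1.

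Centring by transcript length, chosen after seeing the data, gave 58 genes in the stricter class, 31 higher and 27 lower in place of 33 and 45. Of these 58, 42 were among the 78. Bcl2l1, never called, ranged from -0.0618 to 0.0223 with a library left out, and was above 0 without untreated replicate 1 (0.00316) or TNFa+BMP4 replicate 1 or 2 (0.0223, 0.018). Of the other values of named genes under alternatives 2654 kept direction and side of the threshold, 276 lost and 7 gained a call; 79 list medians moved by less than the spread and 15 by more. The causes were not tested.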

Other observations

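The remaining process lists had fewer than 3 members called with neither factor alone. All counts are of tested members in TNFa+BMP4 against untreated cells, beside 31.2% of all genes called with both factors, 15.5% with TNFa and 12.2% with BMP4. NF-kB subunits and inhibitors gave 15 rises of 17 (88.2% called with both, 88.2% with TNFa), chemokines 8 of 8, interferon response and antigen presentation genes 18 of 22, and interleukin and gp130 signalling 14 rises and 3 falls of 25. In the interferon list 95.5% were called with TNFa, and the median change was 0.85 with both factors and 1.35 with TNFa. BMP-Smad targets gave 13 rises and 3 falls of 23, with a median of 0.403 with both and 0.668 with BMP4, and 69.6% called in each. Immediate-early and AP-1 genes gave 13 rises and 3 falls of 22, oxidative stress genes 13 and 4 of 27, collagens and their enzymes 12 and 1 of 24, and matrix proteases and inhibitors 10 and 4 of 20. Slc43a2, a transporter of large neutral amino acids, rose by 1.04 ± 0.11 with both factors and 0.53 with TNFa, in a list of 13 amino acid transporters with 5 rises and 1 fall.

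Fatty acid genes gave 1 rise and 6 falls of 19, among them Acadm, which oxidises medium-chain fatty acids (-0.73 ± 0.09), and cholesterol synthesis 4 rises and 2 falls of 20. The respiratory chain gave 1 rise of 20 (5%, below the share of all genes), that of Cycs, cytochrome c (0.36 ± 0.07, called with neither factor alone). Retinoid genes gave no rise and 5 falls of 11, and Hedgehog and cilium genes no rise and 3 falls of 25. Prostaglandin and osteoclast regulators gave 7 rises of 8, with Csf1, the macrophage growth factor (2.08 ± 0.07), and Ptges, which makes prostaglandin E (0.93 ± 0.08, 0.35 above TNFa with an adjusted p of 0.00409). Notch genes gave 4 rises and 2 falls of 10, EGF receptor family genes 6 and 1 of 13, YAP and SRF targets 7 and 4 of 22, cyclins, CDK inhibitors and Myc 5 and 6 of 16, p53 targets 6 and 3 of 20, survival factors 9 rises of 16, and necroptosis and pyroptosis genes 5 rises of 8. Heat shock genes gave 6 rises and 3 falls of 17, polyamine genes 5 and 1 of 9, metallothioneins and metal transport 5 and 1 of 10, autophagy and lysosome 2 and 4 of 26, bone matrix genes 2 and 3 of 12, and 12 housekeeping controls 2 rises. With both factors 10 of these 12 controls were above untreated. Their median change was 0.0615, and -0.0239 with quantile normalization, beside 0.000195 and -0.0173 over all genes tested.

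Leaving out TNFa+BMP4 replicate 1 brought the 7 called fatty acid genes to 4, the 6 called amino acid transporters to 3 and the 14 called matrix proteases and inhibitors to 9. Leaving out BMP4 replicate 1 raised the 5 called bone matrix genes to 8, and leaving out untreated replicate 2 raised the 3 called Hedgehog and cilium genes to 5.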
